A study of Mus musculus with 8 samples.

Results

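The microRNAs (miRNAs) mmu-miR-193, mmu-miR-193*, mmu-miR-193b, mmu-miR-365 and mmu-miR-455 were measured in the livers of db/db and db/+ mice. They are 5 of the 567 mouse miRNAs on the array, and were chosen by name, as miRNAs tied to brown fat differentiation, with earlier results of this db/db against db/+ contrast in view. Their own differences between the strains are therefore a description and carry no test. The db/db mouse is homozygous for a defective leptin receptor gene and becomes obese and diabetic, and the db/+ mouse carries 1 normal and 1 defective copy and was the nondiabetic control. The background given is C57BL/KsJ, the defect is present in every tissue, and no source used here gives the age or sex of the animals. The series took 4 db/db and 4 db/+ animals, and labelled total RNA of each frozen liver with Cy3 on a 1-colour Agilent array, 1 array per animal.

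A miRNA is a short RNA that guides a silencing complex to messenger RNAs, mainly through its seed, the bases near its 5′ end that pair with the target. In mice, miR-193b and miR-365 come from a shared cluster that is known to be needed for brown fat cells to form in culture, in part through repression of Runx1t1, a transcriptional corepressor. miR-455 is known in mice to be induced by cold and by BMP7 and to drive fat precursors toward brown fat, through targets that include the adipogenic suppressors Runx1t1 and Necdin. Those roles were described in fat cells, and the tissue measured here is liver.

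The mature sequences are printed because they show which of these miRNAs share a seed and which could share signal on the array. They are those of RefSeq for assembly GRCm38.p6, 5′ to 3′, with bases 2 to 8, the seed, in capitals.
mmu-miR-193: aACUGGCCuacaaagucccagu
mmu-miR-193b: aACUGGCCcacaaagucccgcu
mmu-miR-365: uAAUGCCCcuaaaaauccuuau
mmu-miR-193*: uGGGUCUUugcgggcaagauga
mmu-miR-455: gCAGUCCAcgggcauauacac
In current names mmu-miR-193 is miR-193a-3p, mmu-miR-193* is the other arm of its hairpin, miR-193a-5p, and mmu-miR-193b, mmu-miR-365 and mmu-miR-455 are the 3p arms of theirs. Only miR-193 and miR-193b share a seed among the 5. In the RefSeq table, miR-365, miR-193* and miR-455 each had 0 other mouse miRNAs with their seed. Counted from the 5′ end and with the base of miR-193 first, miR-193 and miR-193b differ by U9C, A20G and G21C, 3 of 22 bases. All 3 lie within the stretch covered by the longer miR-193 probe, which starts at base 6, and whether signal was shared between the probes of the pair was not tested.

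The genes lie in pairs on separate chromosomes. The array files, which use mm9, place the probe target of miR-193 on chromosome 11 at 79525516 to 79525532 and that of miR-365 on chromosome 11 at 79539969 to 79539990, with 14458 bases between their 3′ ends. They place miR-193* at 79525485 to 79525498 on the same chromosome and miR-193b on chromosome 16 at 13449668 to 13449684. RefSeq lists 2 genes for the 1 mature miR-365 sequence, Mir365-2 next to Mir193a on chromosome 11 and Mir365-1 next to Mir193b on chromosome 16, so the array signal of miR-365 may come from either locus. In RefSeq, Mir193b and Mir365-1 overlap the long noncoding RNA genes Gm32817 and Gm53058, while Mir193a and Mir365-2 overlap no other listed gene. miR-455 lies on chromosome 4 at 62917943 to 62917958 in mm9, and Mir455 lies within Col27a1, the gene of a fibrillar collagen chain, in RefSeq.

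Before scaling, the db/db arrays differed in brightness by 1.26-fold among themselves and the db/+ arrays by 26.8-fold, with db/+ replicate 1 the brightest (scaling factor 5.63) and db/+ replicate 4 the dimmest (0.21). The mean log2 scaling factor differed by -0.037, db/db minus db/+ (two-sided exact permutation p = 0.971, where the smallest possible p is 0.0286). The db/db arrays detected 133 to 166 mouse miRNAs and the db/+ arrays 91 to 255. The 8 arrays filled 1 slide, with db/db in row 1 and db/+ in row 2, and position on the slide and strain cannot be told apart. To remove the spread in brightness, the signals of an array were divided by the array's median across the 89 miRNAs that all 8 arrays detected, and levels are given as this scaled signal on a log2 scale, which is set no lower than 2.20, the floor. The liver marker miR-122, made by hepatocytes, was detected on all 8 arrays, at 15.48 ± 0.06 on the db/db arrays and 15.38 ± 0.70 on the db/+ arrays (SD, n = 4 each).

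miR-365, 1 of the 2 miRNAs of the brown fat cluster, was higher on every db/db array than on any db/+ array. Its log2 scaled signal was 7.55, 7.96, 7.90 and 8.00 on db/db replicates 1 to 4, and 7.09, 6.78, 7.39 and 6.93 on db/+ replicates 1 to 4. The strains did not overlap: the lowest db/db array, replicate 1, stood above the highest db/+ array, replicate 3. The means were 7.85 ± 0.21 in db/db and 7.05 ± 0.26 in db/+ (SD, n = 4 each), a log2 difference of 0.80 ± 0.18 (SE), or 1.75-fold. On the linear scale the scaled signal was 187 to 255 in db/db and 110 to 168 in db/+. miR-365 was detected on all 8 arrays, and on db/+ replicate 4, the dimmest array, 6 of its 18 spots were well above background. In bulk liver, more cells that make a miRNA and more of it per cell cannot be told apart.

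Without the scaling the db/+ values of miR-365 spread widely. Before scaling, miR-365 had a signal of 159, 266, 238 and 271 on db/db replicates 1 to 4, and of 765, 62.0, 264 and 25.7 on db/+ replicates 1 to 4. The unscaled strains overlapped, with the brightest db/+ array above all db/db arrays and db/+ replicates 2 and 4 below them. After scaling, the brightest and the dimmest db/+ array differed by less than the SD of their group, at 7.09 and 6.93.

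miR-193, whose gene neighbours a miR-365 gene on chromosome 11, differed by less, and its strains overlapped. Its log2 scaled signal was 8.75, 8.58, 8.58 and 8.44 on db/db replicates 1 to 4, and 8.21, 8.20, 8.69 and 8.30 on db/+ replicates 1 to 4. The overlap came from db/+ replicate 3, which lay above db/db replicates 2, 3 and 4. The means were 8.59 ± 0.13 in db/db and 8.35 ± 0.23 in db/+ (SD, n = 4 each), a log2 difference of 0.24 ± 0.16 (SE), or 1.18-fold. miR-193 was detected on all 8 arrays. Without db/+ replicate 3 its difference was 0.35, the highest with 1 array left out, and the strains did not overlap. Removing the array that made the overlap all but fixed that outcome in advance. Without db/+ replicate 4 the difference of miR-193 was 0.12, the lowest with 1 array left out. The scaling was recomputed each time.

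miR-193b, the partner of miR-365 in the brown fat cluster, was near the limit of detection in these livers. It was detected on 1 of 4 db/db arrays, replicate 3, and on 1 of 4 db/+ arrays, replicate 1. Its log2 scaled signal was 3.44, 2.91, 3.70 and 3.37 on db/db replicates 1 to 4, and 2.25, 3.29, 2.25 and 3.92 on db/+ replicates 1 to 4. The highest and the lowest of the 8 values were both db/+, so the db/db values lay within the db/+ range. The means were 3.35 ± 0.33 in db/db and 2.93 ± 0.82 in db/+ (SD, n = 4 each), a difference of 0.43, and miR-193b did not pass the detection filter. With 1 array left out this difference ran from 0.081, without db/+ replicate 1 or 3, to 0.66, without db/+ replicate 4. It was 0.13 without db/db replicate 3 and 0.24 without db/db replicate 4. Leaving out an array also reset the scaling and the floor, so these values do not give the effect of the omitted array alone. The floor, at which miR-193* lay, was 2.60 without db/db replicate 3 and 2.59 without db/db replicate 4, against 2.20 with all arrays. The 2 highest db/+ values came from the dim replicates 2 and 4, where the lowest scaled signal of any detected miRNA was 13.1 and 25.9, against 9.80 and 15.1 for miR-193b.

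miR-193*, the other arm of the miR-193 hairpin, lay at the floor on all 8 arrays. It was detected on db/db replicate 3 and on db/+ replicate 1 and did not pass the filter. No difference can be read from its level at this signal.

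miR-455, which drives brown fat formation in mice, was detected on db/db replicates 1 and 3 and on db/+ replicates 1 and 3. Its log2 scaled signal was 3.73, 2.99, 3.81 and 2.83 on db/db replicates 1 to 4, and 2.20, 3.58, 2.59 and 2.20 on db/+ replicates 1 to 4, with the 2 values of 2.20 at the floor. The strains overlapped through db/+ replicate 2, where miR-455 was not detected. The means were 3.34 ± 0.50 in db/db and 2.64 ± 0.65 in db/+ (SD, n = 4 each), a difference of 0.70 that includes the floored values. It was 1.30 without db/+ replicate 2, with strains that no longer overlapped, which leaving out the array that made the overlap all but fixed in advance. It was 0.41 without db/+ replicate 1 or 3, and 0.34 without db/db replicate 3. The scaling and the floor were recomputed each time, so these sizes mix that shift with the loss of the array. The floor, 2.20 with all arrays, was no higher than 1.77 in the first of these fits and 2.60 in the last. The other arm, miR-455*, which was not among the miRNAs chosen, was detected on 0 db/db arrays and 1 db/+ array.

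**Figure D1:**
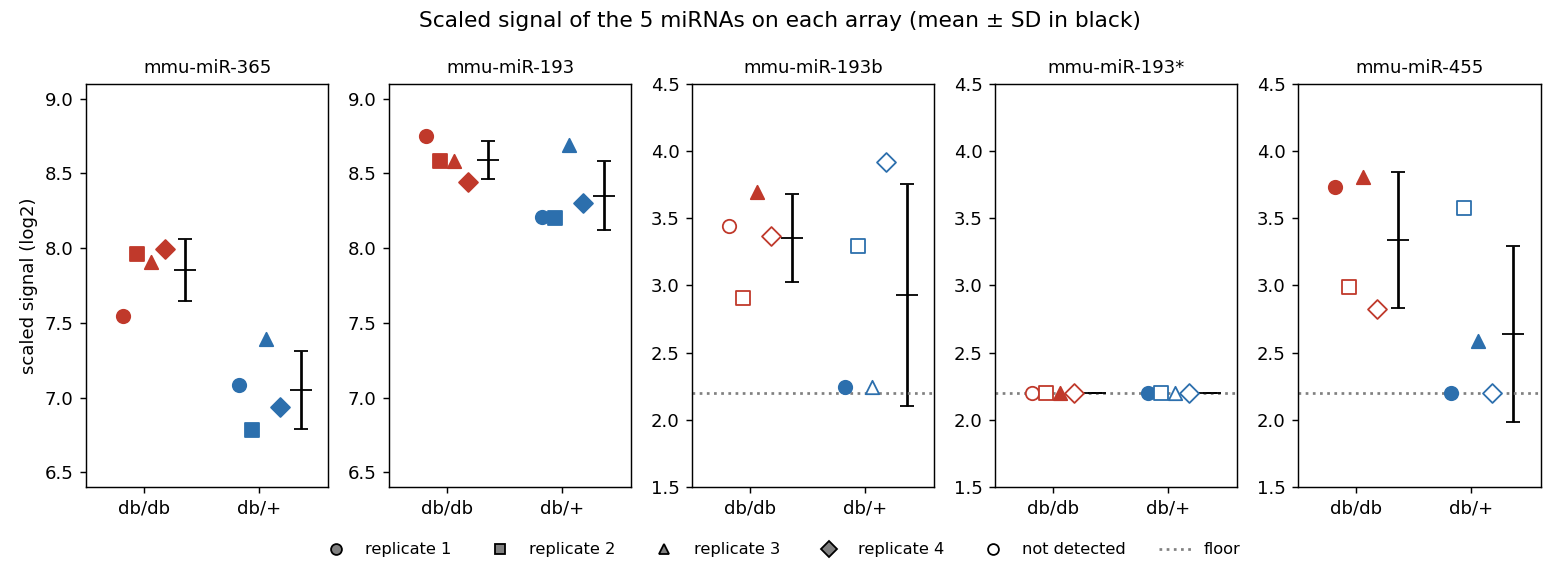
Scaled signal on a log2 scale (vertical axis) of the 5 miRNAs on each array, db/db in red and db/+ in blue, with the mean ± SD of 4 arrays in black, open symbols for arrays on which the miRNA was not detected and a dotted line at the floor of 2.20. The db/db values of miR-365 (7.55 to 8.00) lie above all its db/+ values (6.78 to 7.39), while the other 4 overlap or lie at the floor.

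Of the 5 miRNAs, 2 passed the detection filter and entered the fit across all 127 miRNAs tested, which called 19 at an adjusted p under 0.05 (limma, Benjamini-Hochberg), 12 higher and 7 lower in db/db. With 75th percentile scaling the split was 6 higher and 8 lower, and with cyclic loess 11 and 11. Every tested miRNA was detected on all 4 db/db arrays, so those missed on any db/+ array entered the fit through db/db alone. Over the 89 detected on all 8 arrays, 8 were called higher and 6 lower, and 57 had a positive difference. miR-365 was among the 19 and miR-193 was not. The share called among all tested was 15.0% in either direction and 9.45% higher in db/db, and the strains did not overlap for 22.8% of them. Since this contrast entered the choice of the miRNAs, nothing is read from those counts for miR-365 and miR-193. The median log2 difference of all tested miRNAs was 0.15, and 84 of 127 were positive, and miR-365 lay 0.65 and miR-193 0.087 above this median.

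The probes of a miRNA on this array cover different lengths from its 3′ end, so each gives its own reading of the same RNA. The probe over all 22 bases of miR-365 had log2 scaled signals of 7.69, 8.12, 8.09 and 8.16 on db/db replicates 1 to 4, and 7.24, 6.99, 7.55 and 7.20 on db/+ replicates 1 to 4. The probe over 21 bases had 7.39, 7.78, 7.70 and 7.81 on the db/db arrays, and 6.92, 6.53, 7.22 and 6.62 on the db/+ arrays. Both probes kept the strains apart, with log2 differences of 0.77 and 0.85. Among the repeated spots of 1 probe on 1 array the coefficient of variation was 4.21% to 10.9% for the longer and 3.25% to 7.71% for the shorter probe, on the 7 arrays where all spots were well above background. On db/+ replicate 4, 6 of 10 spots of the longer probe and 0 of 8 of the shorter one were well above background.

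The 2 probes of miR-193 gave log2 differences of 0.23 over 17 bases and 0.40 over 16 bases, and the strains overlapped in both. The 16-base probe had 0 of 10 spots well above background on db/+ replicate 4 and 4 of 10 on db/+ replicate 2, and those were its 2 lowest values, 5.26 and 5.45. The 17-base probe had all spots well above background on all 8 arrays, with a coefficient of variation of 2.18% to 7.02% among spots.

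The signal of the dim miRNAs came mostly from their longest probe. For miR-193b the 17-base probe gave a log2 difference of 0.43 with overlapping strains, while the 16-base probe lay at the floor on 6 of 8 arrays. For miR-455 the 16-base probe gave 1.00, also with overlap, while the 15-base probe lay at the floor on 6 of 8 arrays. For miR-193* the 14-base probe had a scaled signal of 10.5, 14.1, 17.6 and 14.6 on db/db replicates 1 to 4, and of 8.37, 6.24, 8.07 and -7.83 on db/+ replicates 1 to 4. Those strains did not overlap, but 1 of 19 db/db spots and 5 of 20 db/+ spots were well above background, and the 11- and 12-base probes of miR-193* lay at the floor on all 8 arrays. Its 13-base probe lay at the floor on 4 of 8 arrays, had 0 of 18 db/db spots and 3 of 20 db/+ spots well above background, all 3 on db/+ replicate 1, and overlapped between the strains.

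**Figure D2:**
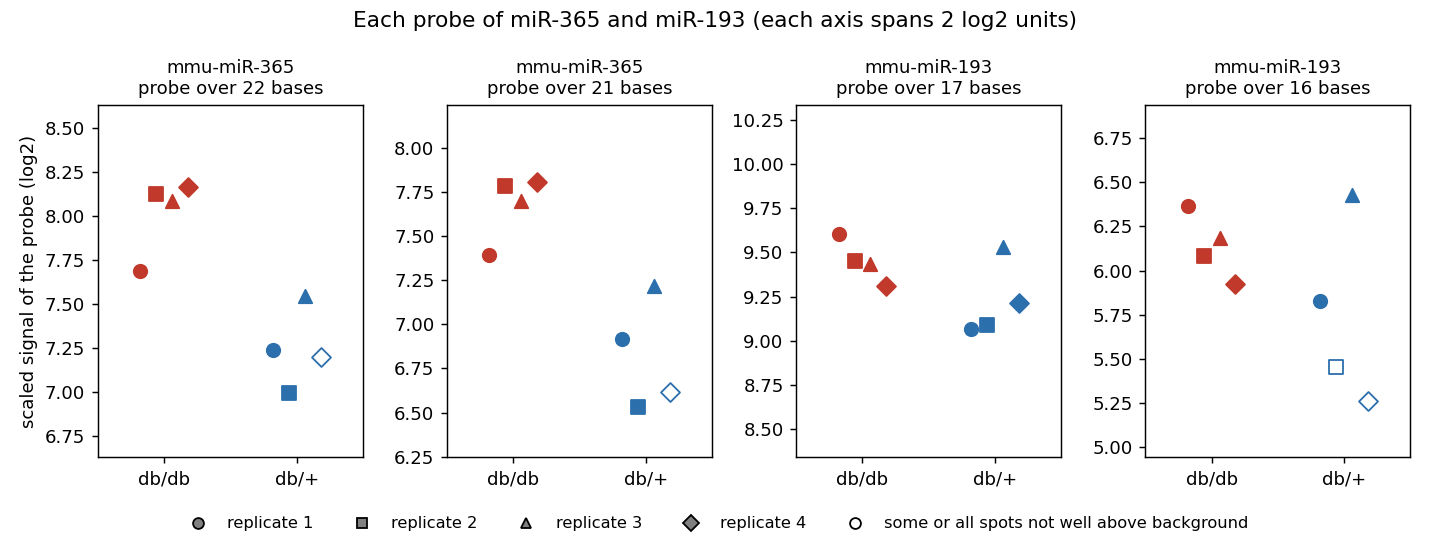
Scaled signal on a log2 scale (vertical axes, each spanning the same number of log2 units) of the 2 probes of miR-365 and the 2 probes of miR-193 on each array, db/db in red and db/+ in blue, with open symbols where some or all spots were not well above background. Both miR-365 probes separate the strains, by 0.77 and 0.85 on average, and both miR-193 probes overlap.

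The ratio of 2 miRNAs on the same array does not depend on the factor that scales the array. The change in miR-365 was therefore also set against that in miR-193, relative to the mean of the db/+ arrays. The log2 ratio of miR-365 to miR-193 was 0.10, 0.68, 0.63 and 0.86 on db/db replicates 1 to 4, and 0.18, -0.12, 0.0034 and -0.065 on db/+ replicates 1 to 4. On db/db replicates 2, 3 and 4 it stood above every db/+ array, and on db/db replicate 1 it lay within the db/+ range. The mean difference was 0.57, with an SD of 0.33 in db/db and 0.13 in db/+ (n = 4 each). A ratio within an array does not show which of the 2 miRNAs changed, and it depends on how background was treated. With normexp background correction the log2 differences were 0.44 for miR-365 and 0.23 for miR-193. With raw median intensities they were 0.42 and 0.19. Over the deviations of the 8 arrays from their strain means, miR-193 and miR-365 had a Pearson r of 0.32, given as a description.

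**Figure D3:**
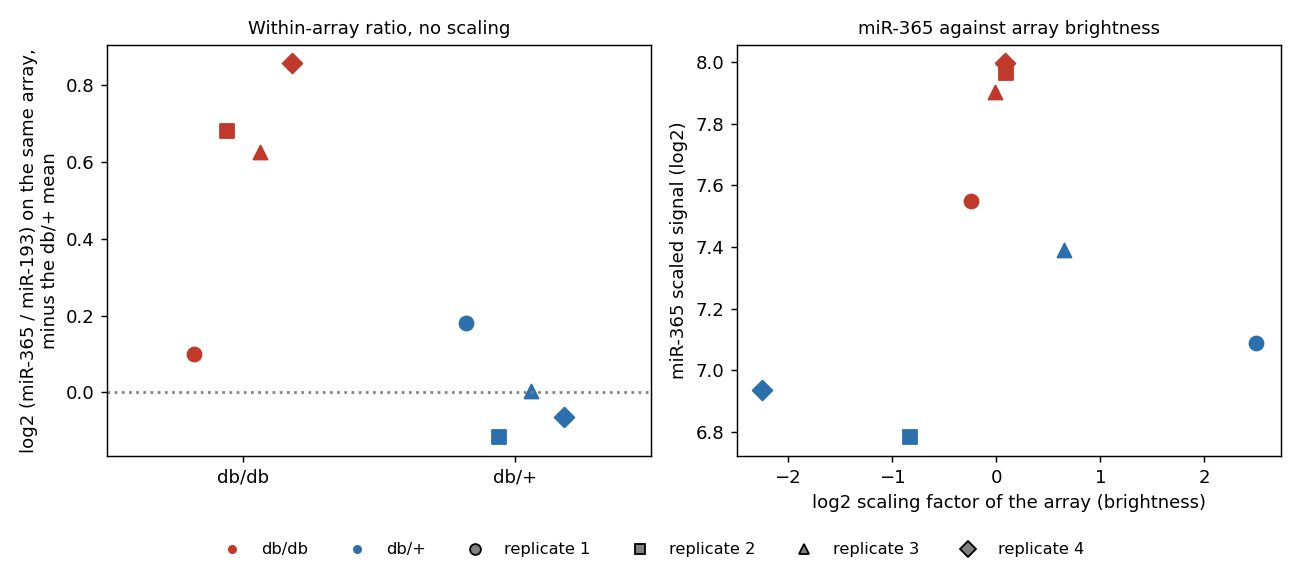
Left, log2 ratio of miR-365 to miR-193 on each array without scaling, minus the db/+ mean (vertical axis), with 3 of 4 db/db arrays at 0.63 to 0.86 and db/db replicate 1 at 0.10, beside db/+ arrays from -0.12 to 0.18. Right, log2 scaled signal of miR-365 (vertical axis) against the log2 scaling factor of the array (horizontal axis), with db/db in red and db/+ in blue, where the db/+ arrays span the brightness range and stay between 6.78 and 7.39.

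Across the 28 alternative ways of processing that gave a value for them, miR-365 was higher in db/db in all 28, with log2 differences of 0.42 to 0.92. The smallest were 0.44 with normexp background correction, 0.42 with raw median intensities and 0.42 without db/+ replicates 2 and 4. miR-365 fell short of an adjusted p of 0.05 in 11 of the 28. Without db/+ replicate 4, which also resets the scaling, its difference was 0.67 and the strains overlapped, as they did without db/+ replicates 1 and 4 or 2 and 4. For miR-193 the difference ran from -0.055 to 0.35, and it was negative without db/+ replicates 2 and 4 and, at -0.013, with the scores the authors deposited. Other scalings moved the median of all miRNAs, to 0.024 with the 75th percentile, 0.033 with cyclic loess and -0.13 with normexp. Relative to that median miR-365 stood at 0.65, 0.67 and 0.57 in those 3 settings, and miR-193 at 0.087, 0.12 and 0.36. The 75th percentile shifts all values of an array above the floor alike. Its distances therefore repeat those of the reported fit and give no further support. Over all alternatives miR-365 stood from 0.40, with raw median intensities, to 0.85, without db/+ replicate 3, above the median, and miR-193 from -0.22, with the deposited scores, to 0.36.

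**Figure D4:**
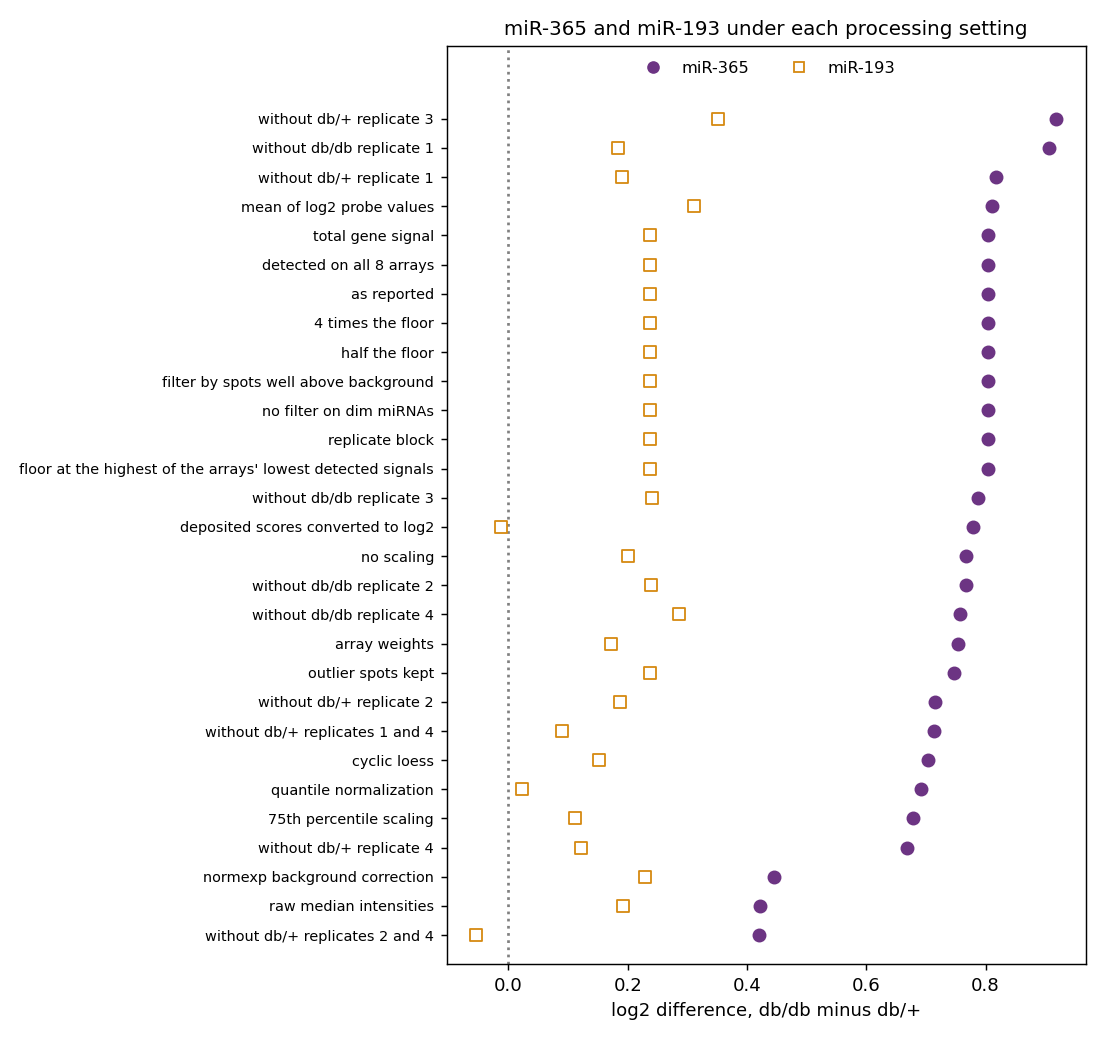
Log2 difference, db/db minus db/+ (horizontal axis), of miR-365 (purple circles) and miR-193 (orange squares) under each processing setting (vertical axis), ordered by miR-365. miR-365 lies between 0.42 and 0.92 throughout, and miR-193 lies on both sides of 0, from -0.055 to 0.35.

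The authors also deposited a log-transformed score for 139 miRNAs, among them 2 of the 5. In the authors' deposited table the score of miR-365 was 1.76, 1.89, 1.84 and 1.82 on db/db replicates 1 to 4, and 1.73, 1.52, 1.80 and 1.55 on db/+ replicates 1 to 4. On this scale the strains overlapped, since db/+ replicate 3 stood above db/db replicate 1, with means of 1.83 ± 0.054 in db/db and 1.65 ± 0.138 in db/+ (SD, n = 4 each) in the authors' deposited table. For miR-193 the authors' deposited table gave 2.00 ± 0.054 in db/db and 2.01 ± 0.069 in db/+ (SD, n = 4 each), which differ by less than either SD.

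The miRNAs whose signal followed miR-365 most closely over the 8 arrays were miR-125b-5p (Pearson r = 0.98), miR-140* (0.98) and miR-676 (0.95), out of 126 candidates with a median r of 0.15. These r values hold the difference between the strains as well as the spread within them. Of the 3, miR-125b-5p and miR-676 were called higher in db/db, and miR-140* had a log2 difference of 0.48 (limma adjusted p = 0.0543). miR-676 was detected on 4 of 4 db/db and 2 of 4 db/+ arrays, so it entered the fit through db/db alone, the strain in which it was higher, and its size and its r rest on the floor. With the strain means removed, the closest were miR-221 (0.93), miR-125b-5p (0.91) and miR-140* (0.90), against a median of -0.19, over 8 arrays that share the brightness spread of the db/+ arrays. For miR-193 the closest were miR-194 (0.77), miR-31 (0.72) and miR-31* (0.68), and with the strain means removed miR-199a-5p (0.68), miR-194 (0.61) and miR-31 (0.58). miR-31* was detected on 4 of 4 db/db and 2 of 4 db/+ arrays, and its lowest db/+ value lay at the floor. miR-221 and miR-199a-5p were each detected on 4 of 4 db/db and 3 of 4 db/+ arrays. These 3 miRNAs entered the fit through db/db alone.

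Other miRNAs with known roles in fat cells were set beside them, from lists drawn up with earlier results of these data known, which give no independent support. Of 11 miRNAs reported to promote brown or beige fat cells, all on the array, 7 were tested, 2 were called higher and 0 lower, against 9.45% of all tested miRNAs called higher and 15.0% called in either direction. These were miR-378, which lies within Ppargc1b and is known to raise brown fat mass in mice, with a log2 difference of 1.09 ± 0.20 (SE; limma adjusted p = 0.0063), and miR-203, an epithelial miRNA, with 0.94 ± 0.25 (limma adjusted p = 0.0281). miR-203 and miR-378* were detected on 4 of 4 db/db and 3 of 4 db/+ arrays, so they entered the fit through db/db alone, the strain in which they were higher. With detection required on all 8 arrays the count was 1, miR-203 not being tested. miR-378* had 0.80 (limma adjusted p = 0.102) and miR-30c, which targets the corepressor RIP140, had 0.37 (limma adjusted p = 0.185). By SAM, the test the submitters used, 3 were called higher and 0 lower, with miR-378* added. By unadjusted limma p under 0.05 it was also 3 and 0. Of all 127 tested, SAM called 18 higher and 8 lower, and 33 had an unadjusted limma p under 0.05 in either direction. The median of the 7 was 0.37, against 0.15 for all tested, and 0.21 against 0.098 over the miRNAs detected on all 8 arrays. The remaining 4 of the 11, among them miR-196a, were not tested. The count of 2 became 0 without scaling, with normexp, with raw median intensities, without the filter on dim miRNAs, and without db/+ replicates 1 and 4 or 2 and 4.

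Of 11 miRNAs on the array that are reported to oppose brown or beige fat cells, 8 were tested, 2 were called higher (9.45% among all tested) and 0 lower. miR-34a, which represses the deacetylase Sirt1, was at 9.68 ± 0.49 in db/db and 7.14 ± 0.35 in db/+ (SD, n = 4 each), a log2 difference of 2.54 ± 0.26 (SE; limma adjusted p = 1.7e-04). miR-125b-5p had 0.54 ± 0.14 (limma adjusted p = 0.0281). miR-93 had 0.50 (limma adjusted p = 0.140) and miR-214 had 0.64 (limma adjusted p = 0.143). By SAM, and by unadjusted limma p under 0.05, miR-93 and miR-214 were also higher, which made 4 higher and 0 lower. Among all 127 tested, SAM called 18 higher, and 33 had an unadjusted limma p under 0.05 in either direction. The median of the 8 was 0.30, with 7 positive, beside 84 of 127 positive among all tested, and 0.099 over those detected on all 8 arrays. miR-214 was detected on 3 of 4 db/+ arrays and entered the fit through db/db alone. miR-133a and miR-133b, muscle miRNAs that repress the brown fat regulator Prdm16, were detected on 0 arrays. The count of 2 became 0 without scaling. The call of miR-125b-5p was lost in 17 of 28 alternatives, and that of miR-34a in 1.

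Of 18 miRNAs tied to white fat cell differentiation, 12 were tested, 3 were called higher and 1 lower, against 15.0% of all tested miRNAs called in either direction and 9.45% called higher. miR-31, reported to hold back fat cell differentiation, had a log2 difference of 1.09 ± 0.17 (SE; limma adjusted p = 0.0032). miR-107 and miR-103, near-identical relatives tied to insulin sensitivity whose probes may share signal, had 0.74 and 0.58 (limma adjusted p = 0.0164 and 0.0220). miR-21, abundant in proliferating and fibrotic tissue, was at 12.95 ± 0.09 in db/db and 13.73 ± 0.25 in db/+ (SD, n = 4 each), a log2 difference of -0.78 ± 0.16 (SE; limma adjusted p = 0.0085). The median of the 12 was 0.11, with 6 positive, against 0.15 for all tested. It was -0.017 with 75th percentile scaling, -0.0021 with cyclic loess and -0.071 with normexp. The median of all tested moved as well, to 0.024, 0.033 and -0.13 in those settings. The other 8 tested did not pass.

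**Figure D5:**
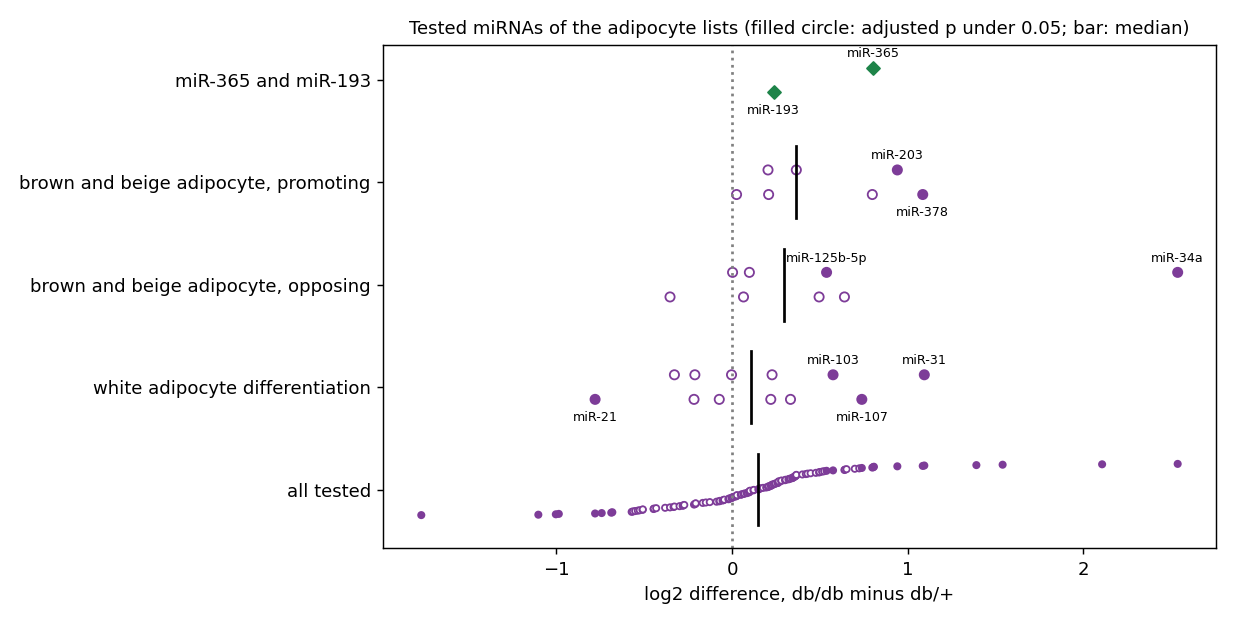
Log2 difference, db/db minus db/+ (horizontal axis), of miR-365 and miR-193 (green diamonds, no test), of the tested miRNAs of 3 fat cell lists and of all 127 tested miRNAs (circles, filled where the limma adjusted p was under 0.05), with a bar at each median. The medians are 0.37, 0.30 and 0.11 for the lists and 0.15 for all tested, and the called members of each list are named.

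Of 8 marker lists for cell types that a piece of liver could hold, those for leukocytes and for epithelia held called miRNAs. Of 6 leukocyte miRNAs, 3 were tested and 2 were called lower in db/db, against 7 of all 127 tested. These were miR-142-3p, by a log2 difference of -1.10, and miR-223, by -0.74 (limma adjusted p = 0.0164 and 0.0434). The other tested member, miR-146a, had -0.044 (limma adjusted p = 0.909). The summed scaled signal of all 6 was 237 to 320 in db/db and 424 to 546 in db/+, without overlap. It includes the signal of the 2 called miRNAs, and the strains did not overlap for 22.8% of all tested miRNAs. The part of the leukocyte list in the differences of miR-365 and miR-193 was not tested. Of 5 miRNAs of biliary and other epithelia, 2 were tested and 1 was called higher in db/db, against 9.45% of all tested. This was miR-200b, by 0.81 (limma adjusted p = 0.0079), while miR-200a had 0.64 (limma adjusted p = 0.228). Both were detected on 4 db/db and 3 db/+ arrays and so entered the fit through db/db alone, the strain in which they were higher. Of those not tested, miR-141 was detected on 0 db/db and 2 db/+ arrays, miR-429 on 1 and 2, and miR-200c on 1 and 1. The list had a summed signal of 76.2 to 104 in db/db and 62.8 to 68.8 in db/+. The part of this list in the differences of miR-365 and miR-193 was not tested. Of the 3 hepatocyte, 2 endothelial, 1 erythroid, 3 stellate and smooth muscle and 1 neural or endocrine miRNAs tested, limma called 0. SAM and an unadjusted limma p under 0.05 each took 1 of these, miR-214 of the stellate list, and took 26 and 33 of all 127 tested. The skeletal and cardiac muscle list had 0 of 4 miRNAs detected on any array, including miR-1, miR-133a and miR-206.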

How the data were processed

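RNA was isolated from frozen liver with Trizol and 100 ng was ligated to pCp-Cy3, per the labels' protocols. Replicates are separate animals, per the series text. The scanner files give an intensity per spot and were written by Agilent Feature Extraction version 9.5.3.1, per the file headers; the submitters' text gives 9.3.5. The processed intensity has the background subtracted and no scaling between arrays, per the file headers. The flags for detection, signal well above background, saturation and outliers are of another kind, 0 or 1, per the file headers. The deposited whole-series file holds the raw median intensity, which matched the scanner value in each of 12493 rows on every array. Scores for 139 miRNAs, also deposited by the authors, are described as median normalized and log transformed. The base of that log is not stated and was estimated from the values as 20.0. Scores were put on a log2 scale with it as an alternative.

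Control spots and outlier spots (3.45% to 4.88% of 11340 mouse miRNA spots on an array) were dropped, and 0 miRNA spots were saturated. Repeated spots were averaged per probe, and up to 4 probes per miRNA. After scaling, signals were floored at 4.59, which is the median of the arrays' lowest detected signals, and put on a log2 scale. A miRNA entered the fit when every array of db/db or every array of db/+ detected it. All 127 that entered were detected on every db/db array, and none entered through db/+ alone. The fit used limma 3.58.1 (lmFit and eBayes, two-sided, with strain alone in the model and Benjamini-Hochberg adjustment across 127 miRNAs) and the data.table package, version 1.17.8, under R 4.3.3, and was tested on simulated data. SAM, the submitters' test, was an alternative (70 permutations, false discovery rate under 5%), 1 of 29 alternatives in all. The number of arrays limits the precision. The floor can understate differences of dim miRNAs, and it can overstate them where an array's lowest detected signal lies above it, as on db/+ replicates 2 and 4.

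The 5 miRNAs and all lists were chosen with earlier results of these data known. Named were all 5, list members past the threshold or otherwise up to 4 per list by smallest p, the 3 miRNAs most like each tested one by Pearson r, and miR-122. A few undetected list members, named as examples, were chosen after their values were seen. Array names are old. Current names were assigned from the place of each arm in its hairpin and from RefSeq of GRCm38.p6, where all 5 matched. Coordinates are in mm9, the build that the array files' headers name. Replicate numbers 3 and 4 stand in the titles of both strains. Deviations from the strain means had r = 0.036 and 0.31 over 127 miRNAs between same-numbered arrays. With no differently numbered arrays set beside them, these r values cannot decide whether the numbers pair animals. No pairing was assumed in the fit, and the numbers as a block were an alternative.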

Additional observations from a re-analysis of the deposited data

How the results depend on the processing

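The sign of the miR-365 difference was positive in all 28 alternatives that gave a value, at 0.44 with normexp, 0.42 with raw median intensities and 0.42 without db/+ replicates 2 and 4. It was 0.67 to 0.92 with 1 array left out. miR-193 had -0.013 with the deposited scores and -0.055 without db/+ replicates 2 and 4, and 0.12 to 0.35 with 1 array left out. The 19 calls over all miRNAs became 11 with quantile normalization, 0 without scaling, 2 with normexp, 1 with raw median intensities, 3 with the deposited scores, 4 without a filter (567 tested), 42 with array weights, 9 without db/+ replicates 1 and 4, 12 with a floor of 25.9, and 11 to 20 with 1 array left out. Without scaling, 1 miRNA had an unadjusted limma p under 0.05. SAM called 26.

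The calls among miRNAs promoting brown fat, 2 as reported, became 1 with 75th percentile scaling, quantile normalization, the deposited scores, 4 times the floor, detection on all 8 arrays and the floor of 25.9. They became 0 without scaling, with normexp, with raw median intensities, without a filter and without db/+ replicates 1 and 4 or 2 and 4, and 4 with array weights. With 1 array left out they were 1 to 2, with 1 left without db/+ replicate 2 or 4 or any db/db replicate. Calls among miRNAs opposing brown fat, 2 as reported, became 0 without scaling, 4 with SAM and 1 with 75th percentile scaling, quantile normalization, cyclic loess, normexp, raw median intensities, the deposited scores, no filter, and without db/+ replicates 1 and 4 or 2 and 4, and 1 to 2 with 1 array left out. Calls among white fat miRNAs, 4 as reported, became 2 with 75th percentile scaling, 0 without scaling, with raw median intensities, with the deposited scores and without a filter, 1 with normexp and without db/+ replicates 1 and 4, and 2 to 4 with 1 array left out. The cause was not tested.

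With the replicate numbers 3 and 4 as a block, 18 miRNAs passed, the opposing list held 1 call, and the differences of miR-365 (0.80) and miR-193 (0.24) were the same.

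Signs turned for named miRNAs whose reported difference was positive. With normexp they were -0.014 for miR-140*, -0.34 for miR-199a-5p, -0.26 for miR-214, -0.14 for miR-221, -0.090 for miR-31*, -0.049 for miR-378*, -0.013 for miR-676 and -0.052 for miR-93. With raw median intensities miR-199a-5p had -0.10 and miR-221 -0.033. Without db/+ replicates 2 and 4, miR-194 had -0.066, miR-199a-5p -0.35 and miR-221 -0.19. miR-122 had -0.028 with 75th percentile scaling and -0.082 without db/+ replicates 1 and 4, and -0.17 to 0.30 with 1 array left out. miR-199a-5p had -0.042 with 75th percentile scaling, -0.11 with array weights, -0.0096 with the floor of 25.9, and -0.074 to 0.17 with 1 array left out.

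The fit without db/+ replicates 2 and 4 and the floor of 25.9 were chosen after seeing the data. Scaling to the median over all miRNAs was not run, since that median was at or below 0 on 3 arrays. The limit for miR-193b, miR-193* and miR-455 is signal over background.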
